A study of Mus musculus with 477 samples.

Results

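Rspo1 and 8 genes that carry or answer its signal were examined in single mouse mammary cells. They were Lgr4, Lgr5 and Lgr6, Znrf3 and Rnf43, and Axin2, Nkd1 and Nkd2. These 9 of the 21004 genes in the count table were chosen by name, for their known place in one step of Wnt signaling. Earlier results of these data were known when the genes were chosen, and all 9 were found. Their levels were compared across the 10 labelled groups of cells.

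R-spondin 1, encoded by Rspo1, is a secreted protein that raises the response of a cell to Wnt ligands. It binds the receptors Lgr4, Lgr5 or Lgr6 and draws the membrane ubiquitin ligases Znrf3 and Rnf43 away from the Frizzled and Lrp receptors that they would otherwise mark for removal. Axin2, Nkd1 and Nkd2 act inside the cell as brakes on the pathway, and Axin2, Rnf43, Znrf3 and Lgr5 are themselves common Wnt target genes. In the normal mammary gland, Rspo1 is known as a product of luminal cells, together with Wnt4.

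The study captured cells 1 by 1 on Fluidigm C1 chips, which make full-length cDNA in separate chambers, and 477 cells from 11 mice were analysed. All mice carried MMTV-Cre, a recombinase driven by a mouse mammary tumor virus promoter, on a mixed C57BL/6 and 129/Sv background, and the luminal cells were sorted by the ROSA mT/mG reporter of Cre activity. Genotype Br had floxed Brca1 on both alleles, genotype 53 had floxed Trp53 with intact Brca1, and genotype Br53 had both changes (the study names 1 floxed Trp53 allele in its methods and both alleles elsewhere), so no group lacked Cre and a floxed allele. Luminal cells (DAPI- CD24Hi CD29Lo and membrane GFP positive, thus with past Cre activity) came from females aged between 3 and 4 months, either virgin (groups vBrL, vBr53L and v53L) or at day 12.5 of pregnancy (groups pBrL, pBr53L and p53L). Tumor cells (DAPI- CD24+) came from Br tumors BrT1 and BrT2 and from Br53 tumors Br53T1 and Br53T2. Each group was 1 mouse except pBrL, which was 2 mice (written pBrL-1 and pBrL-2), so the mouse was the replicate and 4 tumors, 3 virgin and 4 pregnant luminal mice were available.

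The cells of a mouse summed to 40.3 M to 116 M reads, and a cell held 170209 to 3550564 reads. Levels are given as CPM, the reads of a gene per 1000000 summed reads of a mouse. The 7 luminal mice had reads for all 7 luminal markers, and 3 libraries stood apart. BrT1 had 0 reads for the luminal markers Krt19 and Cdh1 and a summed level of 4955 CPM over 6 fibroblast markers, against 0.140 to 96.5 CPM in the other tumors and 0.117 to 712 CPM in the luminal mice. v53L had the fewest detected genes (median 3672.5 per cell), 0 reads for all 8 basal markers and a summed level of 5064 CPM over 7 hormone-sensing markers, against 211 to 2070 CPM in the other luminal mice. Br53T2 held a summed level of 4056 CPM over the basal markers, against 0 to 561 CPM in the other 10 mice, and of 1741 CPM over the hormone-sensing markers, against 90.9 to 111 CPM in the other tumors. Several folds are also given without BrT1, Br53T2 or v53L.

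The results turned chiefly on Rspo1 and Nkd2, so their sequences just ahead of the transcript start are shown. Rspo1 lies at chr4:124986430-125009099 on the plus strand and Nkd2 at chr13:73818534-73847631 on the minus strand of GRCm38. The 250 bases before the annotated start of each, from RefSeq on GRCm38.p6 and written on the strand of the gene, follow with every CpG in capitals. The Rspo1 window is chr4:124986180-124986429 and the Nkd2 window is chr13:73847632-73847881.
Rspo1 upstream: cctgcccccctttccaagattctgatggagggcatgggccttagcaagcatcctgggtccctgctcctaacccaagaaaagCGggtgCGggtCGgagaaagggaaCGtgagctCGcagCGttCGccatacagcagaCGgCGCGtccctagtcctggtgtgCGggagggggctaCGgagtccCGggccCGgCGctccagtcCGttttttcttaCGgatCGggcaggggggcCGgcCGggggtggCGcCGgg
Nkd2 upstream: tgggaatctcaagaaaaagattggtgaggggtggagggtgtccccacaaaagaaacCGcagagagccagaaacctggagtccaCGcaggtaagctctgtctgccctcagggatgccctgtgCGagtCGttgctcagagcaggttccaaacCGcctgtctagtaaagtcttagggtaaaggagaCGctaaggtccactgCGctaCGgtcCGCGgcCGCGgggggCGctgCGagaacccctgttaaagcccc
The Rspo1 window held 22 CpG and the Nkd2 window 14, where the median of 32851 windows of that length was 6. Windows were found for 7 of the 9 genes (8 windows, 2 of them for Rnf43). The letters CTTTGA, the core of the site read by TCF and LEF proteins, were searched on both strands. They were found in 0 of the 8 windows, against 13.8% of all 32851, which says only that these letters are not in these windows. The study had listed top genes shared by its single-cell and bulk data, with Rspo1 on the luminal and Nkd2 on the tumor list. Its text, however, names Rspo1 among the tumor genes. The study also cloned a CRISPR guide against Nkd2 for use in cell lines, and that guide marks a coding position of the gene. It is given here with the adjoining PAM in capitals.
Nkd2 guide: ggaagaaacggaccggcgcgCGG
The guide bases lie at chr13:73846951-73846970, on the strand of the transcript, within coding exon 3 of transcript ENSMUST00000022051.13. They were found in the transcripts of 0 other genes.

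Rspo1 was read in 6 of the 7 luminal mice and in 1 of the 4 tumors. In virgin mice its level was 70.7 CPM in vBrL, 101.6 CPM in vBr53L and 0 CPM in v53L. In pregnant mice it was 152 CPM in pBrL-1, 164 CPM in pBrL-2, 73.04 CPM in pBr53L and 65.8 CPM in p53L. In tumors it was 0 CPM in BrT1, BrT2 and Br53T1 and 26.5 CPM in Br53T2. Every tumor was thus below every Brca1-deficient luminal mouse, and v53L was the only luminal mouse within the tumor range. In descending order the group levels ran pBrL, vBr53L, pBr53L, vBrL, p53L, Br53T2 and then the 4 groups at 0. The 2 pBrL mice lay next to each other in that order, and with 1 mouse in every other group the spread between neighbours is unknown.

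**Figure D1:**
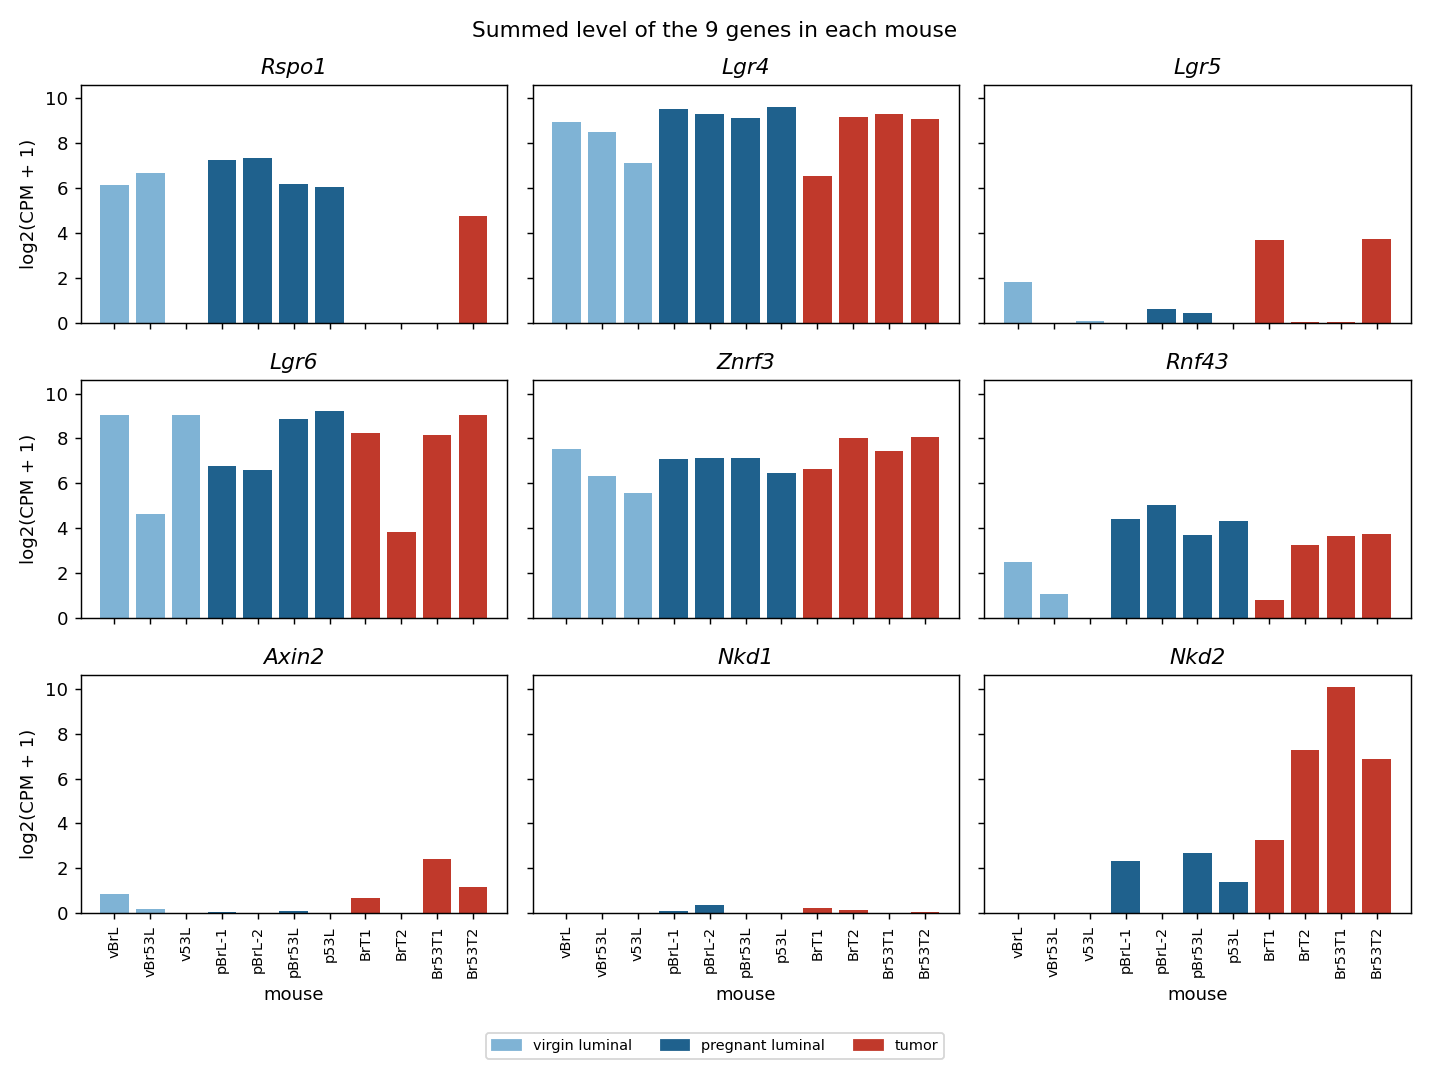
Bars show log2(CPM + 1) of each gene in the summed reads of each of the 11 mice, in virgin luminal (light blue), pregnant luminal (dark blue) and tumor (red) mice. Rspo1 is at 0 in v53L and in 3 tumors, Nkd2 is highest in the tumors, and Lgr4 and Znrf3 have bars in every mouse.

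The tumor level of Rspo1 averaged 6.63 ± 13.3 CPM (SD, n = 4), against 112 ± 43.6 CPM (SD, n = 5) in the Brca1-deficient luminal mice. Marker sums differed between the same mice without overlap. The 8 progenitor and alveolar markers summed to 66.6 to 4686 CPM in the tumors against 18184 to 70348 CPM in these luminal mice, and the 7 luminal markers to 635 to 6245 CPM against 7807 to 13124 CPM. Their part in the Rspo1 difference was not tested. The log2 fold change in edgeR, a count model fitted across all 12978 genes that passed the low-count filter, was -4.25 ± 2.06 (SE), with an adjusted p of 0.393. Rspo1 therefore did not pass the test at an adjusted p under 0.05. Without Br53T2, the only tumor with Rspo1 reads, it passed, with an edgeR adjusted p of 0.000754. Without any other single mouse the edgeR adjusted p was 0.415 to 0.513. The 3 tumors other than Br53T2 held 0 Rspo1 reads among 195 M. Against a floor of 3 reads over these 3 tumors, the mean of the luminal mice was 7310.1-fold higher. This floor covers the counting of reads only. The fold is no bound, since the exact intervals allow 7.55% to 11.6% of the cells of these tumors to hold a read. Of the 8 genes tested in this comparison, Rspo1 was the only 1 that was lower without overlap, a pattern seen in 2.51% of all tested genes, and Nkd2 was the only 1 that was higher without overlap, a pattern seen in 5.01%. The p-value of Rspo1 without Br53T2 belongs to a fold change against mice at 0 reads, and that fitted fold is no bound.

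The share of cells with an Rspo1 read showed the same division between mice. After every cell was thinned to 100000 reads, 37.1% of vBrL cells held a read (exact 95% binomial interval 21.5 to 55.1), as did 53.8% of vBr53L cells (37.2 to 69.9). The shares were 67.6% in pBrL-1, 76.3% in pBrL-2 and 62.3% in pBr53L, and in p53L 18 of 36 cells held a read. Without thinning the 6 shares ran from 51.4% in vBrL to 90.6% in pBr53L. In v53L, 0 of 40 cells held a read at any depth, which allows a share of up to 7.5% by a floor of 3 cells and 8.81% by the exact interval. In BrT1, BrT2 and Br53T1, 0 of 114 cells held a read, which by the same floor allows up to 6.38%, 8.11% and 10.0% in the 3 tumors in turn, and by the exact interval 7.55%, 9.49% and 11.6%. In Br53T2, 7 of 51 cells held a read after thinning, or 13.7% (5.70 to 26.3). Reads carried no molecular identifiers, so intervals and floors cover counting error only.

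Rspo1 reads came from many cells of the 6 luminal mice that had any, but unevenly. The cell with most reads held 9.61% of all Rspo1 reads in pBrL-1 and 32.01% in vBr53L, the lowest and highest of the 6 luminal mice with a read. Among cells with a read, the median level per cell ran from 12.5 CPM in vBr53L to 106.6 CPM in pBrL-2. The summed level of vBr53L, 101.6 CPM, was thus well above its median cell. The highest single cell was in pBrL-1, at 1303 CPM.

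**Figure D2:**
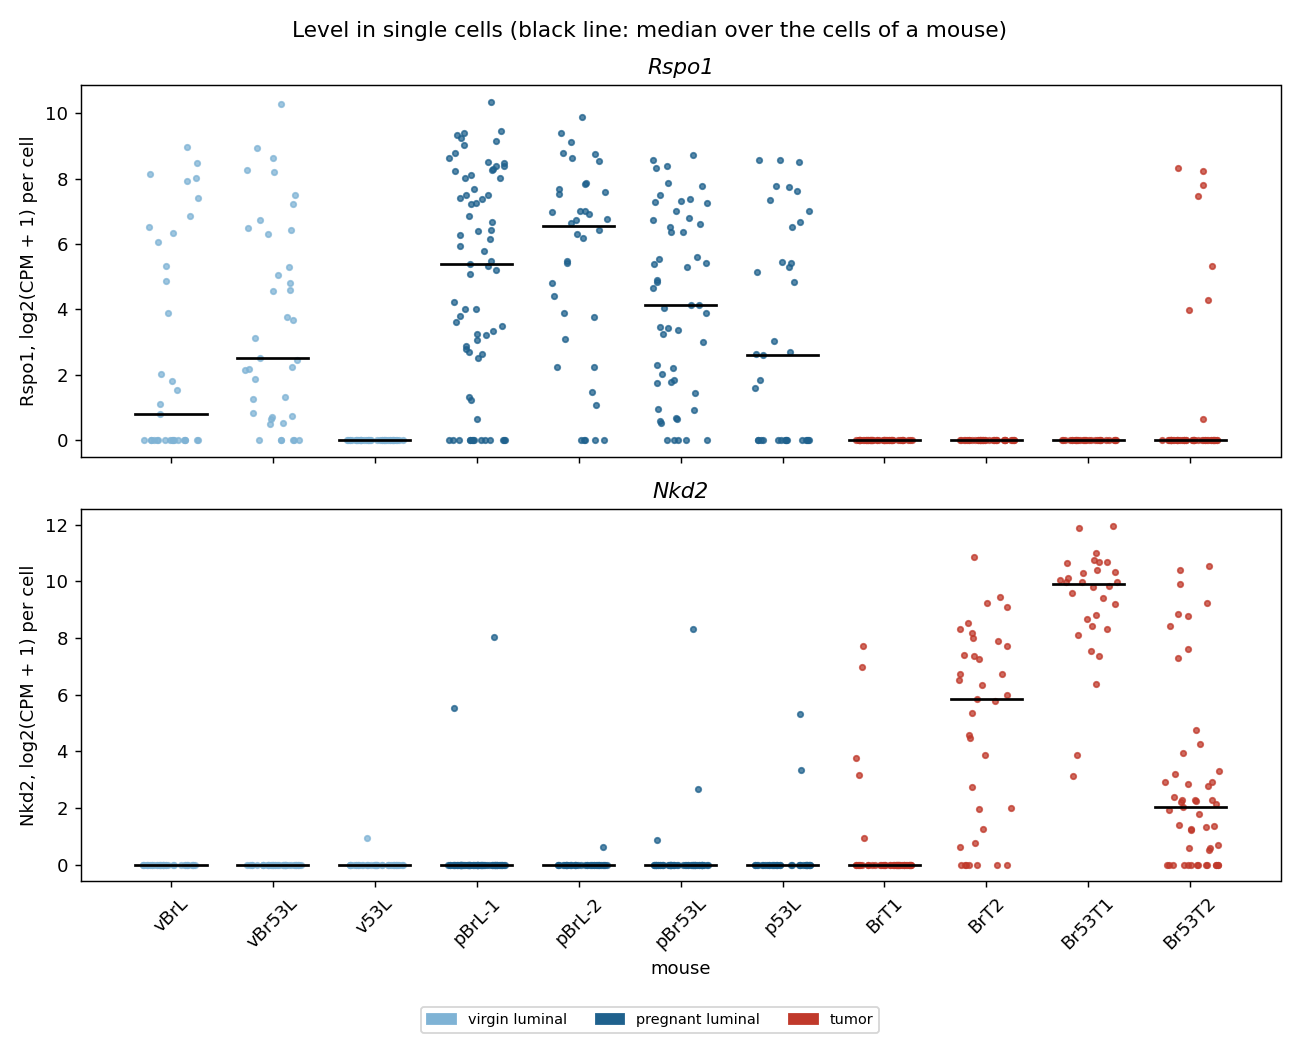
Each point is a cell, placed by mouse, with log2(CPM + 1) of Rspo1 (top) and Nkd2 (bottom) and a black line at the median of the cells. Rspo1 spreads over most cells of 6 luminal mice and is at 0 in all cells of v53L, BrT1, BrT2 and Br53T1, while Nkd2 spreads over most cells of BrT2, Br53T1 and Br53T2.

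The Rspo1 reads of Br53T2 came from 8 cells when no reads were removed. Their levels were 0.552, 14.7, 18.5, 38.9, 178, 221, 297 and 319 CPM, so 4 cells were above the highest median of a luminal mouse (106.6 CPM) and 1 rested on a single read. Csn2, which encodes beta-casein, was 217 to 21997 CPM in 5 of the 8 cells and 2.09 to 4.41 CPM in the other 3, against a median of 2.44 CPM in the other 43 cells. Of 5 luminal markers, 3 had medians more than 2-fold higher in the 8 than in the 43, Krt18 (4026 against 684 CPM), Krt8 (1312 against 404 CPM) and Epcam (883 against 328 CPM). The medians of the other 2 were 350 against 505 CPM for Krt19 and 717 against 691 CPM for Cdh1. For Krt17, a keratin of basal and stressed epithelium, the medians were 4.06 CPM in the 8 against 513 CPM in the 43. For the basal markers Krt14, Krt5, Acta2 and Trp63 they were 4.43, 0.993, 4.11 and 1.92 CPM against 138, 13.3, 38.6 and 38.4 CPM. Single cells of the 8 reached 506 CPM of Krt14 and 3129 CPM of Acta2. Nkd2 was read in 5 of the 8 and in 32 of the 43. Br53T2 was the only tumor whose cells shared a library batch (SC6) with luminal cells, those of pBrL-2, and within that batch the log2(CPM + 1) level of Rspo1 differed by -2.59 (tumor minus luminal). The part of the shared batch in the tumor level was not tested.

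In v53L the absence of Rspo1 stood beside a different mix of cells. Of its 40 cells, 30 held reads for 2 or more of 5 hormone-sensing markers, against 6 to 18 cells in each of the other luminal mice. p53L came from the same library batch (SC9) and held 36 cells. Its Rspo1 level of 65.8 CPM was 885-fold higher than that of v53L, set at a floor of 3 reads. That floor covers the counting of reads only. The fold is no bound, since the exact interval allows up to 8.81% of v53L cells to hold a read. The part of the hormone-sensing cells in this difference was not tested across mice. Within mice it could be examined, since each luminal mouse held at least 6 cells on either side. The mean log2(CPM + 1) of Rspo1 in thinned cells was lower in cells with 2 or more markers in 4 of 7 mice, higher in 2 and 0 on both sides in v53L. The mean difference was -0.67 ± 1.20 (SD, n = 7 mice), with p = 0.219 in an exact two-sided sign-flip permutation test. The difference of v53L was fixed at 0, so 6 mice informed the test, and its smallest possible p was 0.03125. Without thinning the mean difference was -0.17 (exact permutation p = 0.969) and 2 of 7 mice were lower. The test thus did not separate the difference from the spread between mice.

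Lgr4, the most widely read receptor for R-spondins, was present in every mouse. Its gene lies at chr2:109917647-110014257. In virgin mice its level was 496 CPM in vBrL, 365 CPM in vBr53L and 139 CPM in v53L. In pregnant mice it was 736 CPM in pBrL-1, 639 CPM in pBrL-2, 567 CPM in pBr53L and 784 CPM in p53L. All 4 pregnant mice were above all 3 virgin mice. In tumors it was 91.4 CPM in BrT1, 584 CPM in BrT2, 629 CPM in Br53T1 and 549.6 CPM in Br53T2, so BrT1 stood alone at the lower end and the other tumors lay within the luminal range. After thinning, 65.7% to 96.2% of cells held a Lgr4 read in the luminal mice other than v53L, where 40.0% did. In tumors the share ran from 68.1% in BrT1 to 100.0% in Br53T1. The tumor log2 fold change in edgeR was -0.39 ± 0.49 (SE, adjusted p = 0.784), and without BrT1 it was -0.04.

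Lgr6, a second receptor of the family, varied widely between mice of the same tissue. Its gene lies at chr1:134983301-135105276. The virgin levels were 525 CPM in vBrL, 24.2 CPM in vBr53L and 535 CPM in v53L. The pregnant levels were 108.1 CPM in pBrL-1, 95.1 CPM in pBrL-2, 464 CPM in pBr53L and 594 CPM in p53L. The tumor levels were 302 CPM in BrT1, 13.1 CPM in BrT2, 286 CPM in Br53T1 and 523 CPM in Br53T2. Low and high mice occurred in all 3 kinds of sample, and tumors and luminal mice overlapped. In BrT2, 1 of 37 cells held 91.7% of the Lgr6 reads. The tumor log2 fold change in edgeR was 0.01 ± 0.94 (SE, adjusted p = 0.997), and its sign turned in 9 of 16 alternative analyses, among them the 1 without BrT1 (-0.02).

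Lgr5, a receptor known as a marker of several epithelial stem cells, was rare throughout. It lies at chr10:115450311-115587780. Its level was 11.9 CPM in BrT1 and 12.5 CPM in Br53T2, and 0.0200 and 0.0182 CPM in BrT2 and Br53T1, which are 1 read each. In the 7 luminal mice it ran from 0 to 2.54 CPM, the latter in vBrL, where 1 cell held 99.4% of the reads. BrT1 had 12 of 47 cells with a Lgr5 read and Br53T2 had 9 of 51, against at most 4 cells in any luminal mouse. In Br53T2 1 cell held 65.2% of the reads. The tumor log2 fold change in edgeR was 2.97 ± 2.01 (SE, adjusted p = 0.557), within the spread between mice.

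Read per length of exonic sequence, Lgr4 had the highest median of the 3 receptors in the luminal mice. It was 96.4 CPM per kb, against 67.8 CPM per kb for Lgr6 and 0.00725 CPM per kb for Lgr5 (n = 7 mice). In v53L the order of the first 2 was reversed, with 78.1 CPM per kb for Lgr6 and 23.6 CPM per kb for Lgr4. Rspo1 itself had a median of 37.7 CPM per kb over the 7 luminal mice. At least 1 receptor was read in 85.7% to 98.1% of thinned cells in the luminal mice other than v53L, where 47.5% of cells held one, and in 85.1% to 100.0% of tumor cells. Both Lgr4 and Lgr6 were read in 20.5% (vBr53L) to 77.4% (pBr53L) of luminal cells and in 5.41% (BrT2) to 76.7% (Br53T1) of tumor cells. Receptors were therefore read in most cells of 3 tumors in which Rspo1 was not.

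Cells with an Rspo1 read mostly held a receptor read as well. In the 6 luminal mice with Rspo1, 76.9% (vBrL) to 100.0% (vBr53L and pBr53L) of the thinned Rspo1-positive cells held a Lgr4 read. The share among Rspo1-negative cells of the same mice ran from 59.1% (vBrL) to 100.0% (pBrL-1 and pBrL-2). Lgr6 was read in a larger share of the Rspo1-positive than of the Rspo1-negative cells in 4 of these mice (vBrL, vBr53L, pBrL-2 and p53L) and in a smaller share in pBrL-1 and pBr53L. Pearson's r between Rspo1 and Lgr4 over the cells of a mouse averaged 0.147 over the 6 mice, from -0.0864 to 0.389. Such weak values in sparse counts, over cells that share a library, give no pattern.

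**Figure D3:**
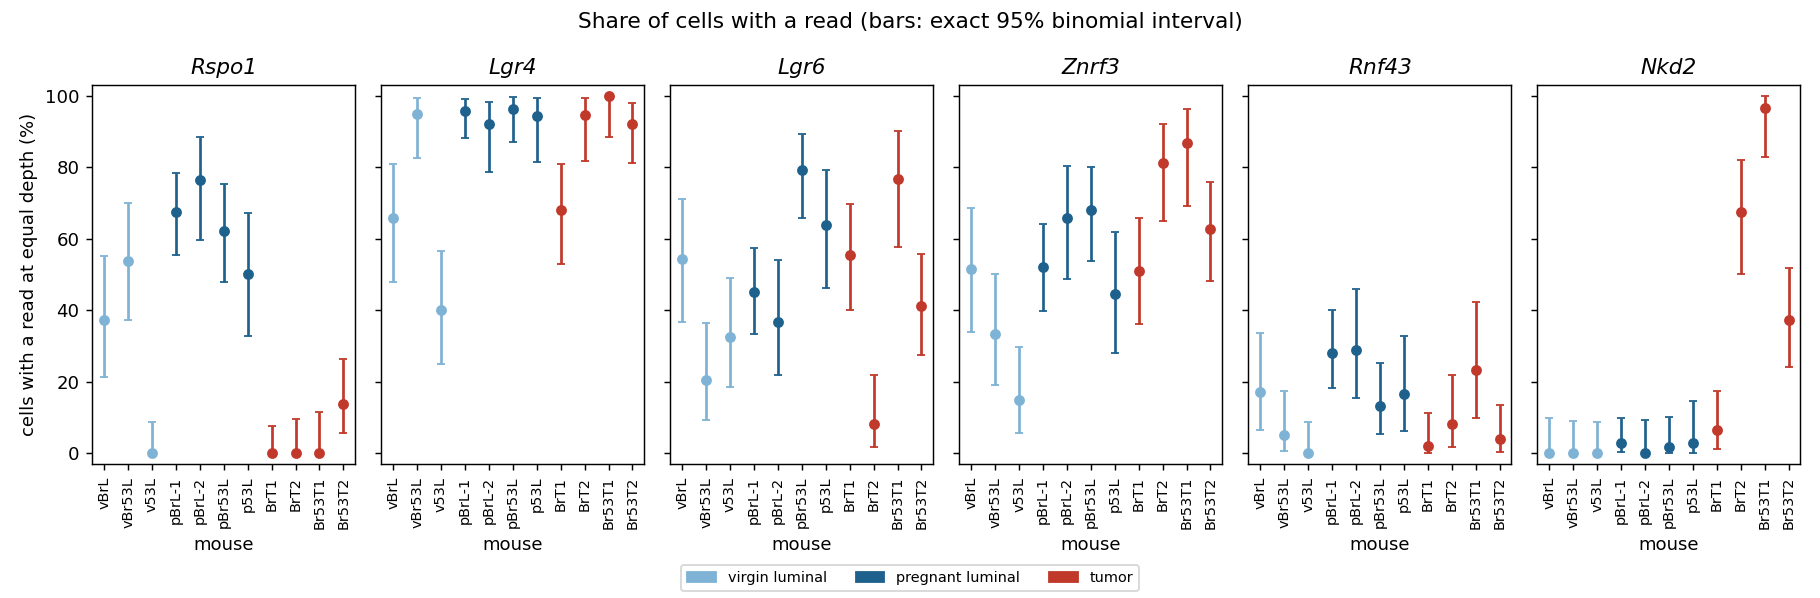
Points show the percentage of cells of each mouse with at least 1 read after thinning to 100000 reads, for 6 genes, with exact 95% binomial intervals. Lgr4 is read in most cells of 10 mice, Rspo1 in 37.1% to 76.3% of cells of 6 luminal mice, and Nkd2 in more than 5% of cells in tumors and in no luminal mouse.

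Znrf3, a ligase that clears Frizzled and Lrp6 from the membrane, was read in every mouse. Its gene lies at chr11:5276324-5444847. Its virgin levels were 186 CPM in vBrL, 80.1 CPM in vBr53L and 47.2 CPM in v53L, and its pregnant levels were 133 CPM in pBrL-1, 139 CPM in both pBrL-2 and pBr53L and 86.7 CPM in p53L. In tumors it was 98.2 CPM in BrT1, 263 CPM in BrT2, 174 CPM in Br53T1 and 268 CPM in Br53T2. The 2 highest values of the series were thus in tumors, but BrT1 and Br53T1 lay within the luminal range. The tumor log2 fold change in edgeR was 0.46 ± 0.37 (SE, adjusted p = 0.636), and without BrT1 it was 0.69.

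Rnf43, the partner ligase, was much lower. Its gene lies at chr11:87662722-87735539. Its virgin levels were 4.63 CPM in vBrL, 1.12 CPM in vBr53L and 0 CPM in v53L. Its pregnant levels were 20.3 CPM in pBrL-1, 31.4 CPM in pBrL-2, 12.1 CPM in pBr53L and 19.2 CPM in p53L. The pregnant mice were all above the virgin mice. In tumors it was 0.729 CPM in BrT1, 8.70 CPM in BrT2, 11.4 CPM in Br53T1 and 12.6 CPM in Br53T2. Much of this rested on few cells. The top cell held 90.6% of the Rnf43 reads in Br53T2 and all of them in BrT1. Per length, the luminal median of Rnf43 was 1.85 CPM per kb against 16.9 CPM per kb for Znrf3. The tumor log2 fold change in edgeR was -0.84 ± 1.02 (SE, adjusted p = 0.772). It was -0.46 without BrT1, and it turned positive when only virgin mice formed the luminal arm.

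Nkd2, a cytoplasmic antagonist that binds Dishevelled, had the widest range of the 9 genes. Its level was 8.59 CPM in BrT1, 156 CPM in BrT2, 1093 CPM in Br53T1 and 115 CPM in Br53T2. In virgin luminal mice it was 0 CPM in vBrL and vBr53L and 0.0248 CPM in v53L. In pregnant luminal mice it was 4.00 CPM in pBrL-1, 0.0130 CPM in pBrL-2, 5.45 CPM in pBr53L and 1.64 CPM in p53L. Every tumor was above every luminal mouse, although BrT1 came close to pBr53L. The tumor mean was 343 ± 504 CPM (SD, n = 4), against 1.89 ± 2.64 CPM (SD, n = 5) in the Brca1-deficient luminal mice.

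The log2 fold change of Nkd2 in edgeR was 7.31 ± 2.12 (SE), with p = 0.00545 before and 0.155 after adjustment over all 12978 genes, so it did not pass. It passed in DESeq2 (adjusted p = 0.0188) and in edgeR on thinned cells (adjusted p = 0.0386), and when single mice were left out the edgeR adjusted p ran from 0.128 to 0.286. Within the shared batch SC6, Nkd2 in Br53T2 exceeded pBrL-2 by 6.84 on the log2(CPM + 1) scale. Cells with a Nkd2 read numbered 5 of 47 in BrT1, 30 of 37 in BrT2, 30 of 30 in Br53T1 and 37 of 51 in Br53T2. In Br53T2 only 12 of those cells reached 10 CPM. In BrT1 only 3 did, and 1 cell held 66.7% of the reads. In luminal mice 0 to 3 cells held a read, and single cells made up 81.6% of the Nkd2 reads in pBrL-1 and 97.8% in pBr53L. Nkd2 was thus spread over most cells of BrT2, Br53T1 and, mostly under 10 CPM, Br53T2. It was held by few cells in BrT1 and by isolated cells in luminal mice.

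Axin2 and Nkd1 were sparse, with reads in at most 9 cells of any mouse. Axin2, the most used reporter of canonical Wnt activity, lies at chr11:108920349-108950783, and 209 of its exonic bases overlap the antisense gene Gm11670. Since the library kit does not mark strand, reads of these bases cannot be told apart. Its level was 0 CPM in BrT2, 0.607 CPM in BrT1, 1.23 CPM in Br53T2 and 4.39 CPM in Br53T1, and at most 0.808 CPM (vBrL) in the luminal mice. In Br53T1 all 241 reads were in 1 cell. The tumor log2 fold change in edgeR was 2.69 ± 1.88 (SE, adjusted p = 0.573). Nkd1, a close relative of Nkd2 at chr8:88521354-88594884, did not exceed 0.312 CPM in any mouse, where 1 cell of pBrL-2 held all 24 reads, and it did not pass the low-count filter in any comparison. Nkd2 was therefore the only feedback gene of the 3 that was read in more than 9 cells of any mouse.

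Across the tumor comparison, 0 of the 8 genes tested passed edgeR's adjusted p under 0.05, where 0.609% of all genes did (79 of 12978). By unadjusted p under 0.05, 1 of the 8 passed, beside 13.8% of all tested genes, and DESeq2 called 1, beside 6.23%. It was Nkd2 in both cases. The median log2 fold change of the 8 was 0.24, beside 0.06 over all tested genes. Leaving out BrT1 added 0 of the 9 genes to Rspo1 (lower) and Nkd2 (higher), the 2 without overlap between the arms, while the shares over all genes tested then were 3.76% lower and 7.24% higher.

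Pregnancy was compared in the 7 luminal mice with genotype as a covariate. Of the 9 genes, 7 passed the low-count filter and 0 passed edgeR's adjusted p under 0.05, where 0.0159% of 12615 genes did. The unadjusted p was under 0.05 for 3 (Lgr4, Rnf43 and Nkd2), beside 9.74% of all tested genes. DESeq2 called 2, Rnf43 (adjusted p = 0.0294) and Nkd2 (adjusted p = 0.0103), beside 7.67% of all tested genes. Lgr4 and Rnf43 were higher in all pregnant than in all virgin mice, 2 of 7 tested genes where 6.32% of all tested genes showed that pattern. The opposite pattern was shown by 0 of the 7 and by 5.58% of all tested genes. Lgr4 had a log2 fold change of 1.12 ± 0.43 (SE, adjusted p = 0.480 in edgeR), and it was 0.56 without v53L and also without p53L. Rnf43 had 4.01 ± 1.69 (SE, adjusted p = 0.505 in edgeR), with 1 virgin mouse, v53L, at 0 reads, and 2.88 without v53L.

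The same direction was seen within both library batches that held virgin and pregnant cells. On the log2(CPM + 1) scale Lgr4 was higher in pregnancy by 0.63 in SC7 and 2.49 in SC9, and Rnf43 by 2.63 and 4.34. Rspo1 differed between the batches, at -0.47 in SC7 and 6.06 in SC9, where the virgin mouse was v53L. Its pregnancy log2 fold change in edgeR was 1.83 ± 1.75 (SE, adjusted p = 0.787), within the spread between mice, and it was 0.45 without v53L and also without p53L. Nkd2 had a log2 fold change of 8.88 ± 3.27 (SE, adjusted p = 0.474 in edgeR), which rested on 1 read, of v53L, in the virgin mice and on isolated cells in the pregnant ones. Without v53L the virgin mice held 0 Nkd2 reads, and the fitted value of 11.10 is no bound. Without v53L, Nkd2 was added to Lgr4 and Rnf43 as higher without overlap, 3 of 8 tested genes where 10.4% of all genes tested then showed that pattern. Axin2 was then lower without overlap, 1 of the 8 where 10.5% of all genes were. Summed over 8 markers, the progenitor and alveolar genes ran from 52632 to 75679 CPM in the pregnant and from 18184 to 29066 CPM in the virgin mice. The sums of 3 other marker lists did not overlap between the stages either. They were those of the hormone-sensing markers, at 211 to 322 CPM in the pregnant against 857 to 5064 CPM in the virgin mice, of the fibroblast markers, at 0.117 to 25.4 CPM against 176 to 712 CPM, and of the red cell markers, at 0.149 to 2.75 CPM against 11.7 to 36.5 CPM. The part of these markers in the Lgr4 and Rnf43 differences was not tested.

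Brca1 status was compared in the same fit, as the mean of Br and Br53 against 53. Of 7 genes tested, 0 passed edgeR's adjusted p under 0.05, where 0.0% of 12615 genes did. Neither an unadjusted p under 0.05 (0 of the 7) nor DESeq2 (0 calls) picked any of them, where over all genes those counts were 759 (6.02%) and 483 (3.83%). Rspo1 was higher in all 5 Brca1-deficient mice than in the 2 mice of genotype 53, a pattern seen in 8.83% of all tested genes. The lowest of the 5 was vBrL at 70.7 CPM and the higher of the 2 was p53L at 65.8 CPM, so the gap was small. Its log2 fold change was 2.39 ± 1.94 (SE, adjusted p = 0.833 in edgeR), and without v53L it was 0.65. It passed only without p53L (adjusted p = 0.0316), when v53L with its 0 reads was the sole mouse of genotype 53. Lgr6 was lower in all 5 than in both mice of genotype 53, a pattern seen in 3.23% of genes, with a log2 fold change of -1.35 ± 1.01 (SE, adjusted p = 0.819 in edgeR). Both mice of genotype 53 came from 1 library batch, so genotype and batch cannot be told apart.

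Between the tumor genotypes, Br53 (n = 2) against Br (n = 2), 0 of 7 tested genes passed edgeR's adjusted p under 0.05, where 0.0% of 13477 genes did. The unadjusted p was under 0.05 for 0 of the 7 and DESeq2 made 0 calls among them, against 537 (3.98%) and 315 (2.34%) over all genes. Rnf43 and Axin2 were higher in both Br53 tumors than in both Br tumors, 2 of 7 where 19% of all tested genes showed that pattern. The opposite pattern was shown by 0 of the 7 tested genes and by 12.9% of all tested genes. Their log2 fold changes were 1.19 ± 1.72 (SE) and 3.21 ± 2.93 (SE), and each gene rested on few cells. Without BrT1 that of Rnf43 was 0.30, and that of Axin2 was then fitted against BrT2 alone, at 0 reads, and is no bound. Nkd2 had a log2 fold change of 2.72 ± 1.62 (SE) between the tumor genotypes, and from 0.30 (without Br53T1) to 6.15 (without BrT2) when a tumor was left out, with overlap since BrT2 lay above Br53T2. Rspo1 was not tested there, since it was read in Br53T2 alone.

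The rest of the pathway was taken from a list of 79 further genes, of which 77 were in the table. In the tumor comparison 49 were tested and 0 passed edgeR's adjusted p under 0.05, beside 0.609% of all genes. The unadjusted p was under 0.05 for 12, of which 10 were higher and 2 lower, beside 13.8% of all tested genes. DESeq2 called 9, of which 8 were higher, beside 6.23%. Their median log2 fold change was 0.65, beside 0.06 over all tested genes. Fzd7, a receptor for Wnt ligands, ran from 9.30 to 27.6 CPM in the tumors and from 0.346 to 5.42 CPM in the luminal mice of the comparison, with a log2 fold change of 2.79 ± 0.99 (SE, edgeR adjusted p = 0.234). Tcf7, a nuclear partner of beta-catenin, was 11.2 to 27.3 CPM against 0.138 to 6.25 CPM.

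Tcf7l2, another nuclear partner of beta-catenin, ran the other way. It ran from 88.7 to 449.6 CPM in the tumors and from 676 to 1259 CPM in the 5 luminal mice, with a log2 fold change of -2.14 ± 0.45 (SE, edgeR adjusted p = 0.0591). It was the 1 lower gene among the 9 that DESeq2 called (DESeq2 adjusted p = 0.000226). Wnt5b, a ligand, was 0.0801 to 24.6 CPM against 37.4 to 54.2 CPM. Ctnnb1, which encodes beta-catenin, was 110.1 to 389 CPM over all 11 mice. Wnt4, the luminal ligand that is known to act with Rspo1, was 5.65 to 64.3 CPM in the luminal mice, and 64.1 CPM in Br53T2 against 1.18 to 2.32 CPM in the other tumors.

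**Figure D4:**
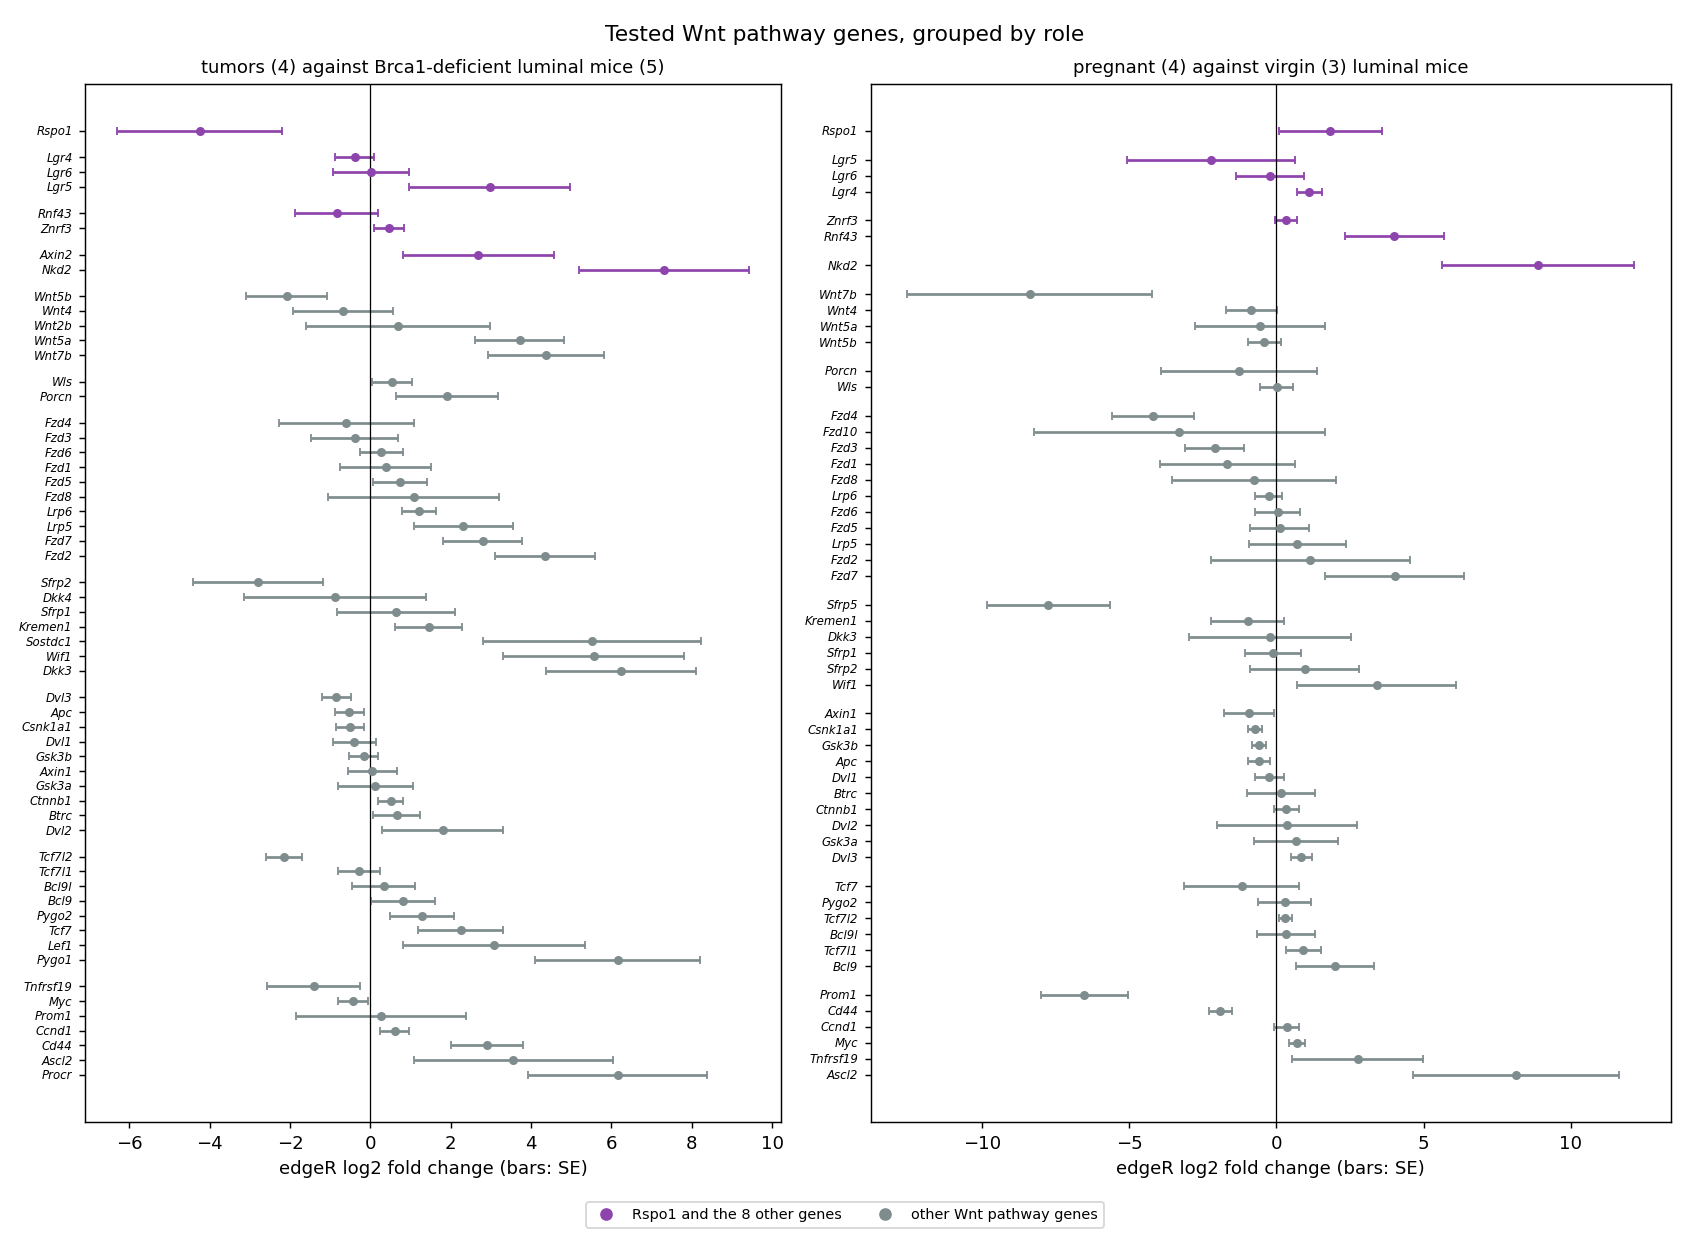
Points show edgeR log2 fold changes with their SE for the tested genes of the pathway, grouped by role from Rspo1 (top) to other Wnt target genes (bottom), for tumors against Brca1-deficient luminal mice (left) and pregnant against virgin luminal mice (right). Rspo1 lies at -4.25 and Nkd2 at 7.31 on the left, and no point on either side has an adjusted p under 0.05.

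In the pregnancy comparison 45 of these genes were tested and 0 passed edgeR's adjusted p under 0.05. The unadjusted p was under 0.05 for 8, of which 6 were lower, beside 9.74% of all tested genes. DESeq2 called 6, all lower, where over all genes it called 7.67%, 517 higher and 450 lower. Their median log2 fold change was -0.10, beside 0.12 over all genes. Prom1, which encodes a membrane glycoprotein also known as CD133, was 0.0130 to 4.22 CPM in the pregnant and 9.62 to 215 CPM in the virgin mice. Fzd4, a Frizzled receptor, was 0.308 to 1.61 CPM against 3.00 to 25.5 CPM. Dvl3, a Dishevelled relay protein, was 58.8 to 139 CPM against 47.5 to 54.1 CPM, with a log2 fold change of 0.85 ± 0.36 (SE, edgeR adjusted p = 0.501). For Brca1 status 45 were tested and 0 passed, with 2 at an unadjusted p under 0.05, beside 6.02% of all tested genes, and 0 called by DESeq2, beside 3.83%. Wnt5b was 37.4 to 54.2 CPM in the Brca1-deficient mice against 7.92 and 27.6 CPM in the others (edgeR adjusted p = 0.776), and Bcl9l, a nuclear co-factor of beta-catenin, was 5.05 to 12.3 CPM against 12.8 and 13.3 CPM (edgeR adjusted p = 0.834). Between tumor genotypes 53 were tested and 0 passed, with 2 at an unadjusted p under 0.05, beside 3.98% of all tested genes. DESeq2 called 1 there, beside 2.34% of all tested genes, the secreted inhibitor Sostdc1, which was 31.3 and 88.9 CPM in the Br53 tumors and 0 CPM in the Br tumors. Dkk3, of the Dickkopf family of secreted proteins, had a log2 fold change of 4.07 ± 1.95 (SE). Of the lower genes that did not overlap and averaged 10 CPM or more in the Br tumors, the receptor Fzd1 was at -2.68 ± 1.27 (SE) and Ccnd1, which encodes cyclin D1, at -1.23 ± 0.61 (SE).

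Genes with a profile like that of Rspo1 were ranked over the 8886 genes that averaged 10 CPM or more. Over the 11 mice, Pearson's r of log2(CPM + 1) was highest for Trim16 (0.951), Ppp2r3a (0.946), Atp7b (0.942), Fads2 (0.939) and Tomm70a (0.925). These mice share the division into luminal and tumor cells. Trim16 was 8.26 CPM in v53L against 38.6 to 85.3 CPM in the other luminal mice and was 6.99 to 35.9 CPM in tumors, highest in Br53T2. Over the cells within a mouse, the highest mean r over 6 luminal mice was 0.279, for Rhoq, which in sparse counts gives no pattern.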

How the data were processed

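Per the labels and the study's methods, single cells were captured on C1 chips, and the authors filtered reads with sickle, trimmed them with Trim Galore 0.4.1, aligned them to mm10 with STAR 2.5.3a and counted reads per gene with Subread 1.5.3. The deposited values are raw counts per gene and cell, without molecular identifiers. The annotation used for counting and its strand setting are not given in the sources used here.

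The reads of all cells from 1 mouse were added up (40.3 M to 116 M reads). Genes passing filterByExpr were tested with edgeR 4.0.16 (quasi-likelihood test, TMM factors) in R 4.3.3, with Benjamini-Hochberg adjustment over all tested genes and a threshold of 0.05. The tumor comparison set 4 tumors against the 5 luminal mice without intact Brca1. Stage and genotype were fitted together in the 7 luminal mice. Each mouse was a separate animal. Shares of cells used counts thinned to 100000 reads per cell, and log values used a pseudocount of 1 CPM. Simulated 8-fold changes were recovered in 98.0% of 200 genes for the tumor comparison, 85.0% for pregnancy, 63.0% for Brca1 status and 40.0% between tumor genotypes. The simulation gave every gene the same dispersion between mice and changed only genes above a low level. These shares therefore do not carry over to genes that spread more widely. In the tumor comparison the SE of the log2 fold change was 2.06 for Rspo1 and 2.12 for Nkd2.

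The 9 genes, the pathway list and the marker lists were chosen with earlier results of these data known. Named pathway genes were those called, otherwise up to 2 per direction by size of fold change, among genes whose arms did not overlap and whose higher arm reached 10 CPM on average. Wnt4, Dkk1, Ctnnb1, Lrp6 and Fzd7 could be named anywhere, and Rspo3, Dkk2 and Wif1 were named after their values were seen. Fibroblast, endothelial, immune and red cell markers were also summed. Endothelial markers reached 9.62 CPM (Br53T2), immune markers 290 CPM (pBr53L) and red cell markers 36.5 CPM (vBr53L). Alternatives were RLE factors, DESeq2 1.42.0, no low-count filter, thinned cells, other covariates and arms, and leaving out each mouse. Counts of genes without overlap were repeated without BrT1, Br53T2 or v53L, chosen after seeing the data. Gene positions came from GENCODE vM21 and upstream sequences from RefSeq, both on GRCm38, the assembly also named mm10.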

Additional observations from a re-analysis of the deposited data

Results flagged for a closer look

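Among 18 sets of values (the 9 genes in the 7 luminal mice and in the 4 tumors), 8 held a mouse that stood apart by Dixon's test at the 95% level, where chance flags about 1 in 20 sets of independent values without ties, or 0.9 of 18. Here values were tied at 0 in some sets and the same mice recur across sets, so that rate is only a guide. The gap to the nearest mouse, as a share of the range of log2(CPM + 1), was 0.823 for Rspo1 in v53L (0 CPM against 65.8 to 164 CPM in the other luminal mice) and 1.0 for Rspo1 in Br53T2 (26.5 CPM against 0 in the other tumors, where ties at 0 fix the share). Lgr4 in BrT1 (91.4 CPM against 549.6 to 629 CPM) had a share of 0.930, and Rnf43 in BrT1 (0.729 CPM against 8.70 to 12.6 CPM) had 0.836. Lgr6 in BrT2 (13.1 CPM against 286 to 523 CPM) had 0.833. The other 3 were levels under 3 CPM held by 1 to 3 cells, Lgr5 in vBrL (0.656), Axin2 in vBrL (0.768) and Nkd1 in pBrL-2 (0.754).

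The difference between pregnant and virgin mice had opposite signs in different genotypes for 3 genes, among those that reached 10 CPM in a luminal mouse. With 1 virgin mouse per genotype, these differences were not tested. Lgr6 was lower in both pregnant Br mice (108.1 and 95.1 CPM) than in vBrL (525 CPM) but higher in pBr53L (464 CPM) than in vBr53L (24.2 CPM) and in p53L (594 CPM) than in v53L (535 CPM). The Br effect minus the Br53 effect was -6.57 on the log2(CPM + 1) scale, and minus the 53 effect it was -2.51. Znrf3 was also lower in pregnant Br mice and higher in the other 2 genotypes, with differences of effects of -1.24 (Br minus Br53) and -1.32 (Br minus 53). Rspo1 was higher in pregnant Br and 53 mice and lower in pBr53L, with differences of effects of 1.62 (Br minus Br53) and -6.53 (Br53 minus 53).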

How the results depend on the processing

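The share of all tested genes that was called moved with the analysis. For tumors it was 0.609% (79 genes) and became 6.23% (808) with DESeq2, 0.665% (129) without the low-count filter, 1.64% (177) with thinned cells, and 1.61% (213), 0.0% and 0.324% (44) with all 7, only virgin or only pregnant luminal mice, and 0.0868% to 0.702% when a mouse was left out. For pregnancy it was 0.0159% (2 genes) and became 7.67% (967) with DESeq2, 1.99% (366) without the filter, 0.200% (21) with thinned cells, 0.135% (17) with stage alone and 0.333% (42) with library batch in place of genotype, and 0.0% to 0.0296% when a mouse was left out. For Brca1 status it was 0.0% and became 3.83% (483) with DESeq2 and 0.575% without the filter, and 0.0% to 0.137% when a mouse was left out, the highest without p53L. For Br53 against Br tumors it was 0.0% and became 2.34% (315) with DESeq2 and 1.67% (295) without the filter, and 0.0% to 1.498% when a mouse was left out, with 52 genes without BrT1 and 228 without BrT2. Of the 9 genes, the tumor comparison called 1 with DESeq2, with thinned cells (Nkd2 in both) and without Br53T2 (Rspo1), pregnancy called 2 with DESeq2, and Brca1 status called 1 without p53L (Rspo1). Leaving out a mouse gave 0 to 1 of the 9 for tumors and for Brca1 status.

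Of 342 alternative values of single genes, 311 kept their direction and their side of the threshold, 6 came to pass it and 25 reversed. The reversals included well-read genes (Lgr4, Lgr6 and Znrf3) as well as sparse ones. Lgr6 in tumors was -0.0024 without the filter, -0.55 with all 7 and -0.15 with only virgin luminal mice, and -0.48 to 0.49 when a mouse was left out. Rnf43 in tumors was 1.40 with only virgin mice. In pregnancy Lgr5 was 0.72 and Lgr6 2.29 with library batch in place of genotype, and when a mouse was left out they ran from -3.76 to 0.54 and from -1.36 to 2.25. For Brca1 status, Nkd2 was 1.01 without the stage term. Leaving out a mouse gave -0.55 to 1.49997 for Lgr4, -0.38 to 10.50 for Rnf43 and -0.92 to 0.80 for Nkd2, each reversed without v53L. The 10.50 was fitted against v53L alone, at 0 Rnf43 reads, and is no bound. Between tumor genotypes it gave -0.16 to 2.70 for Lgr4, -8.19 to 7.99 for Lgr5, both ends fitted with 1 arm of a single tumor at 1 read, and -0.42 to 1.18 for Znrf3. The cause of these reversals was not tested.

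The Rspo1 difference by hormone-sensing markers was -0.67 and became 0.28 (5 mice, exact permutation p = 0.875) with 1 or more markers, -0.45 (3 mice) with 3 or more, -0.17 (7 mice, exact permutation p = 0.969) without thinning, and -0.95 to -0.41 when a mouse was left out. Without v53L, 4 rather than 2 of the 9 genes did not overlap between stages and between Brca1 genotypes, and over all genes tested then the shares were 10.4% higher and 10.5% lower for stage and 21.6% and 11.5% for Brca1 status, against 6.32% and 5.58%, and 8.83% and 3.23%, with all mice. Genes whose reads sat in few cells (Lgr5, Axin2 and Nkd1) limited what could be shown. No paired analysis was possible by replicate number, because the labels give none shared by mice of different groups. Such mice shared only library batches (SC6, SC7 and SC9), which were used in the within-batch differences and in the pregnancy fit with library batch in place of genotype.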

Other observations

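The other R-spondins were nearly absent. Rspo3 was 27.97 CPM in BrT2, where 13 of 37 cells held a read and 1 cell held 36.03% of the reads, and it was at most 0.0662 CPM in the other 10 mice. BrT2 was thus a tumor with 0 Rspo1 reads and with reads of another ligand of the same receptors. Of the secreted Wnt inhibitors, Dkk2 and Wif1 were read mainly in 1 or 2 tumors and Dkk1 in 1 luminal mouse. Dkk2 was 145 CPM in BrT1 and at or near 0 in the other mice. Wif1 was 205 CPM in Br53T2 and 33.02 CPM in BrT2, against at most 4.71 CPM in the luminal mice. Dkk1 was 9.35 CPM in v53L and at or near 0 elsewhere. The edgeR log2 fold change of Wif1 in tumors was 5.56 ± 2.25 (SE, adjusted p = 0.302). These genes were named after their values were seen, apart from Dkk1, and most of the levels rest on 1 mouse.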
